A study of Ovis aries with 14 samples.

Results

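The lungs described here are those of 6 unsupported fetal lambs (Ovis aries) taken between gestation days labelled gd127 and gd136. They were selected by their labels alone, as every library of the fetal start and fetal end groups, and make up 6 of the 14 libraries of the series. The study compared lungs of preterm lambs after 3 days of invasive mechanical ventilation (IMV) or noninvasive respiratory support through a mask (NRS) with unsupported fetal lungs and with lungs at term. Fetal start lambs were labelled gd127 (replicate 1), gd128 (replicate 2) and gd131 (replicate 3). Fetal end lambs were labelled gd135 (replicate 1), gd134 (replicate 2) and gd136 (replicate 3). Both groups were labelled as having received no treatment, and RNA came from the right lower lung lobe of each lamb. Where other groups are named for their levels, IMV (n = 3) and NRS (n = 3) lambs were labelled gd134 and term lambs (n = 2) gd150 with no treatment. The sources used here give no breed, sex or drug given to the ewe.

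The 6 lambs have separate animal identifiers. Those of fetal end replicates 1 and 2 begin with F134 and F135, the reverse of their labelled days, and slopes in day were therefore also computed with these days exchanged. Identifiers of the fetal start lambs end in 17 or 18 and those of all 3 fetal end lambs in 19, and the labels do not say what this ending stands for. Whatever it marks cannot be told apart from the difference between the groups. The mean labelled day was 6.33 days later at fetal end than at fetal start.

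In late gestation the lung passes from sac-like to true alveolar airspaces. Its walls thin, capillaries come to lie against the epithelium, and alveolar type II cells, the epithelial cells that make surfactant, store and begin to release it. Surfactant is the lipid and protein film that lowers surface tension when air first enters the lung. In sheep fetal cortisol rises towards birth and is known to promote these steps, and the lung lumen stays filled with liquid until then. The deposited counts name genes by Ensembl identifier only, and 0 identifiers could be matched to a symbol. Surfactant, epithelial, vascular, immune and red cell markers could not be looked up, the labelled tissue was not checked against its markers, and no function is given for any gene below. In whole lung tissue, fewer cells of a type and less RNA per cell cannot be told apart.

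The 6 fetal libraries held between 24817865 and 28194734 counts, and between 15480 and 16097 genes reached 10 counts in a library. The single most abundant gene took between 4.73% (fetal end replicate 2) and 6.88% (fetal end replicate 3) of a library's counts, and the 100 most abundant took 22.6% to 25.6%. Of the 27054 genes in the table, 5169 had no count in any fetal library.

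The lungs differed from lamb to lamb about as much within the groups as between them. Distance between libraries was the root mean square difference of log2 CPM (a gene's counts scaled to the size of its library) over 15879 genes. The 9 pairs that join a fetal start and a fetal end lamb lay 0.634 to 0.777 apart (median 0.655). The 3 pairs of fetal start lambs lay 0.629 to 0.724 apart (median 0.658), within the same range apart from the closest pair. Fetal end lambs were closer to each other, at 0.535 to 0.678 (median 0.614). The closest pair of all was fetal end replicates 1 and 3 (gd135 and gd136), and the farthest was fetal start replicate 2 with fetal end replicate 2 (gd128 and gd134). The gd131 lamb of the fetal start group was nearer to each of the fetal end lambs (0.634, 0.636 and 0.655) than to the gd127 lamb (0.658) or the gd128 lamb (0.724) of its own group. The gd127 lamb was also nearer to fetal end replicates 3 (0.637) and 2 (0.649), but not 1 (0.687), than to the gd131 lamb. A pair 9 days apart (fetal start replicate 1 and fetal end replicate 3) differed by 0.637, hardly more than the 0.629 of the pair at gd127 and gd128.

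**Figure D1:**
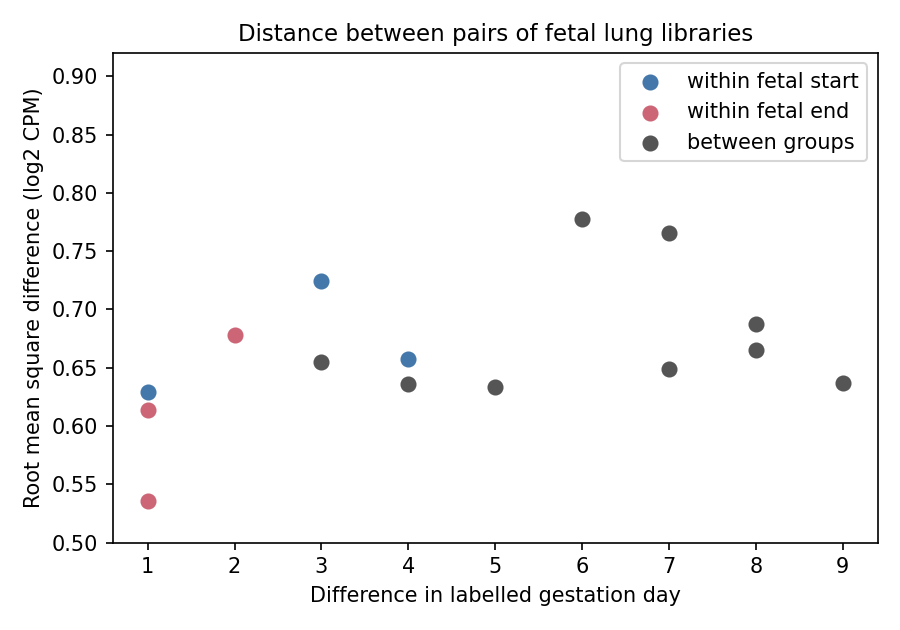
Distance between each pair of fetal libraries (root mean square difference of log2 CPM, vertical axis, which starts at 0.5) against the difference of their labelled gestation days, 1 point per pair, coloured by whether the pair lies within a group or between groups. Pairs between groups (0.634 to 0.777) cover the range of the pairs within fetal start (0.629 to 0.724) except its lowest value, and the lowest point of all, 0.535, is a pair of fetal end lambs.

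Single genes varied somewhat more among fetal start lambs. The median standard deviation of log2 CPM over 3 lambs was 0.230 at fetal start (quartiles 0.127 to 0.422) and 0.190 at fetal end (quartiles 0.105 to 0.356). Of 15879 genes, 9278 (58.4%) had the larger standard deviation at fetal start. The labelled days also span more at fetal start (gd127 to gd131) than at fetal end (gd134 to gd136), and the part of this in the spread was not tested.

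Over all 15879 genes and all 6 lambs, the 2 youngest lambs scored below the other 4 on the main axis of variation. The gd128 lamb lay farthest out, and the groups overlapped on this axis. The first principal component of the 6 fetal libraries held 31.8% of the variance. Its scores in order of day were -22.0 (gd127), -55.3 (gd128), 11.4 (gd131), 29.0 (gd134), 32.5 (gd135) and 4.30 (gd136). The oldest lamb scored below the gd131 lamb. The mean was 21.9 ± 15.4 at fetal end and -21.9 ± 33.4 at fetal start (SD, n = 3 each), a difference of 43.9 (two-sided exact permutation p = 0.2, where 3 lambs against 3 cannot go below 0.1). Across the 6 lambs the score followed day with Pearson's r = 0.78 (exact two-sided permutation p = 0.0611 over 720 pairings) and Spearman's rho = 0.60 (exact permutation p = 0.242). Benjamini-Hochberg values over these 3 tests were 0.183 for r and 0.242 for rho and the difference in an exact permutation. The groups did not overlap over the 1000 most variable genes, with a difference of 36.0, or without fetal start replicate 3, with a difference of 63.9 (exact permutation p = 0.1 in each, the smallest possible). Replicate 3 was the only fetal start lamb to score above a fetal end lamb, so the separation without it follows from leaving it out. With any other 1 lamb left out, the difference gave an exact permutation p of 0.2 to 0.4. Without the 2 lambs farthest from the median day, those of gd127 and gd128, r was 0.08. The relation was thus not seen among the other 4 lambs, which span only gd131 to gd136. With 1 lamb left out at a time, r was 0.75 without the gd127 lamb and 0.86 without the gd128 lamb. It was lowest without fetal end replicate 1 (0.56) and highest without fetal end replicate 3 (0.91). Each group holds 3 lambs, too few for a correlation within it.

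**Figure D2:**
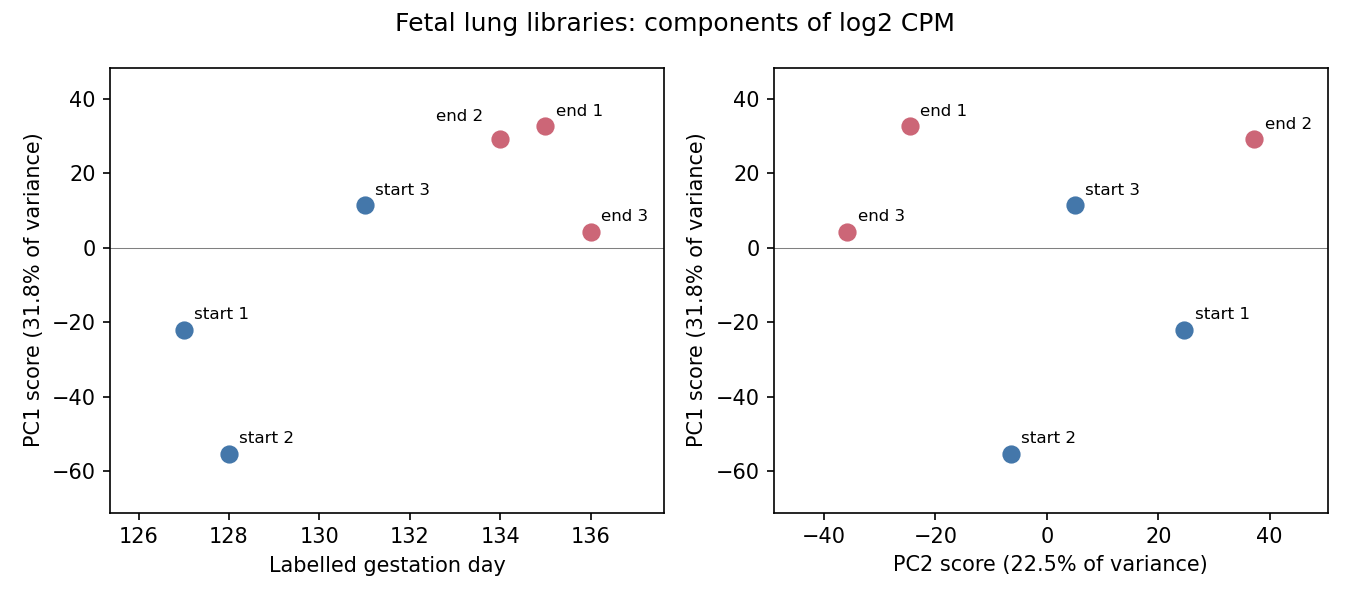
Score of each fetal library on the first principal component of log2 CPM against labelled gestation day (left) and against the second component (right), 1 point per lamb. The gd127 and gd128 lambs score -22.0 and -55.3, the other lambs between 4.30 and 32.5, and the gd136 lamb lies below the gd131 lamb.

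Fetal end against fetal start asks how the lung in utero differed between the 2 fetal ages sampled, 6.33 days apart on average. A single gene of 17069 passed (0.00586%), ENSOARG00000006431, which rose, and 0 genes fell (0%) by edgeR's quasi-likelihood F test at an adjusted p under 0.05. At an unadjusted p under 0.05 the same test counted 1321 genes (7.74%), of which 786 (4.6%) were higher and 535 (3.13%) lower at fetal end. DESeq2, fitted to the same 14 libraries, called 118 of 17027 genes (0.693%), 80 higher (0.47%) and 38 lower (0.223%), with a median size of 1.45 on the log2 scale. The gene that edgeR called was among them, and 112 of the 118 had no overlap between the 3 start and the 3 end lambs. Over all 17069 genes, 6.25% were higher and 5.54% lower with no overlap. DESeq2 called its genes for a difference between these same lambs, so the larger share follows from the call and is no support for it. Over all genes tested the log2 fold change had a median of 0.004. Scaling of the libraries tends to hold this median near 0, so it cannot show a shift of all genes. For the 13499 genes with a mean of at least 1 log2 CPM, the 95% interval of the log2 fold change reached a median of 0.37 to either side, or 1.29-fold. This interval is for a single gene, without adjustment for the number of genes tested. With 3 lambs per group, a change smaller than a gene's own interval could not be told from none even before adjustment. Much larger differences also failed to pass after it, such as 1.93 for ENSOARG00000021041 and -2.99 for ENSOARG00000001680 (adjusted p = 0.244 in edgeR for both). Changes well above 1.29-fold may thus have gone uncalled.

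ENSOARG00000006431 stood at 0.327, 0.368 and 0.676 CPM in the lambs of gd127, gd128 and gd131, and at 3.30, 4.94 and 4.38 CPM in those of gd134, gd135 and gd136. The lowest fetal end value was above the highest fetal start value, and the library with the fewest reads of this gene held 9 counts. Its log2 fold change was 3.19 with an SE of 0.39 and a 95% interval of 2.35 to 4.03 (adjusted p = 0.0422 in edgeR). It did not pass in a fit of the 6 fetal libraries alone (log2 fold change 3.19, edgeR adjusted p = 0.379). The call was also lost without any 1 of the fetal end lambs, or without fetal start replicate 1 or 2 (edgeR adjusted p from 0.0521 to 0.444), while the log2 fold change stayed between 3.0 and 3.34.

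The genes with the next smallest p in each direction, among those that averaged at least 1 log2 CPM, did not pass in edgeR, and their groups did not overlap either. They were chosen for a small p between these same lambs, so the lack of overlap follows largely from the choice and is no support. ENSOARG00000021041 had 6.54, 5.27 and 11.6 CPM at gd127, gd128 and gd131 and 22.1, 29.3 and 37.6 CPM at gd134, gd135 and gd136. From gd128 onwards each older lamb stood above the one before it. The mean was 29.7 ± 7.78 CPM at fetal end and 7.79 ± 3.33 CPM at fetal start (SD, n = 3 each). The groups differed by 1.93 on the log2 scale, with an SE of 0.32 (adjusted p = 0.244 in edgeR). ENSOARG00000002223 had 301, 314 and 244 CPM in the fetal start lambs and 514, 471 and 592 CPM in the fetal end lambs, in order of day. The 3 fetal end lambs stood above the 3 fetal start lambs, by 0.88 on the log2 scale with an SE of 0.16 (adjusted p = 0.291 in edgeR).

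Among genes with lower levels at fetal end, ENSOARG00000001680 had 10.5, 9.69 and 2.89 CPM at gd127, gd128 and gd131 and 1.49, 0.566 and 0.827 CPM at gd134, gd135 and gd136. The gd131 lamb lay between the 2 younger and the 3 older ones. The difference between the groups was -2.99 on the log2 scale, with an SE of 0.50 (adjusted p = 0.244 in edgeR). ENSOARG00000021259 had 111, 148 and 130 CPM at fetal start and 53.2, 41.0 and 49.3 CPM at fetal end, in order of day. Here the gd131 lamb was at the level of the other 2 fetal start lambs, and the difference was -1.44 on the log2 scale with an SE of 0.24 (adjusted p = 0.244 in edgeR). DESeq2 called all 4 of these genes (DESeq2 adjusted p from 1.53e-05 to 0.000256). Without the gd131 lamb, edgeR also called ENSOARG00000021041 (edgeR adjusted p = 0.045) and ENSOARG00000001680 (edgeR adjusted p = 0.0335). Over all alternatives the edgeR and DESeq2 adjusted p of both genes ran from 1.53e-05 to 0.913.

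Large differences between the group means leaned towards higher levels at fetal end. By fitted fold change 926 genes were 2-fold or more higher at fetal end and 309 were 2-fold or more lower, together 7.24% of those tested. For genes with few counts the fitted fold change depends on the prior count and is no bound. Groups did not overlap in 392 of the higher genes (2.3% of all genes tested) and in 119 of the lower ones (0.697%). Without regard to size, 1066 genes (6.25%) were higher and 945 (5.54%) lower with no overlap. Of the 20 ways to split 6 lambs into 3 and 3, 1 gives each direction, so many genes separate without any tie to age. Whether these shares exceed that was not tested. Most of the 2-fold genes had few counts: 248 of the 926 and 103 of the 309 reached 1 log2 CPM. The higher genes were not evenly spread over the fetal end lambs. Fetal end replicate 2 (gd134) had the highest level in 392 of the 926 genes, replicate 1 (gd135) in 357 and replicate 3 (gd136, the oldest) in 177. Replicates 2 and 1 were also the fetal libraries with the most genes at 10 counts (16097 and 16024, against 15718 in replicate 3). The part of this in the lean was not tested. The lower genes were highest in fetal start replicate 1 in 102, replicate 2 in 116 and replicate 3 in 91 cases. More genes were 2-fold higher than lower in every alternative, the closest as a ratio being 796 against 444 without fetal end replicate 2. With the 6 fetal libraries alone, whose low count filter kept 15879 genes, the counts were 519 and 196. These differences were not tested as a set.

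**Figure D3:**
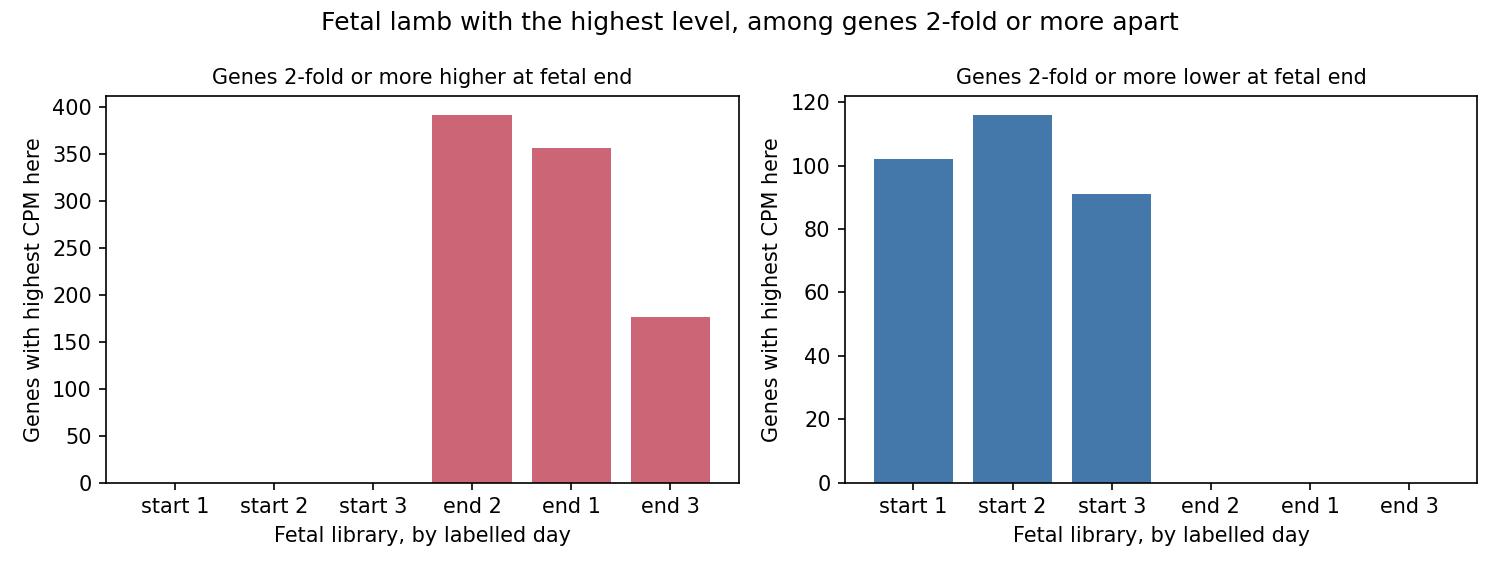
Number of genes whose highest CPM among the 6 fetal libraries is in the library shown, for the 926 genes 2-fold or more higher (left) and the 309 genes 2-fold or more lower (right) at fetal end, libraries in order of labelled day. The bars at left fall from 392 and 357 in replicates 2 and 1 to 177 in replicate 3 of fetal end, and those at right lie between 91 and 116.

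Gestation day was then used as a continuous measure over the 6 fetal lambs, which makes use of the ages within the groups. No slope passed, 0 of 15879 genes (0%), with a smallest edgeR adjusted p of 0.1. At an unadjusted p under 0.05 there were 1359 genes (8.56%), 757 with a positive slope (4.77%) and 602 with a negative one (3.79%). DESeq2 called 240 slopes (1.51%), 149 positive (0.938%) and 91 negative (0.573%). With the spread estimated from all 14 libraries in place of the 6, edgeR called 3 slopes, those of ENSOARG00000021041, ENSOARG00000006431 and ENSOARG00000001680. In order of day, 27 genes (0.17%) were higher at every one of the 5 steps and 45 (0.283%) were lower at every step. Of the 720 possible orders of 6 lambs, 1 rises and 1 falls at every step, so some genes do so without any tie to age. These counts were not tested. Over all genes the slopes had a median of -0.001 log2 units per day, with 5th and 95th percentiles of -0.08 and 0.13. This median too is held near 0 by the scaling of the libraries. For the 13400 genes with a mean of at least 1 log2 CPM, the 95% interval of the change over 9 days reached a median of 0.51 log2 units to either side.

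**Figure D4:**
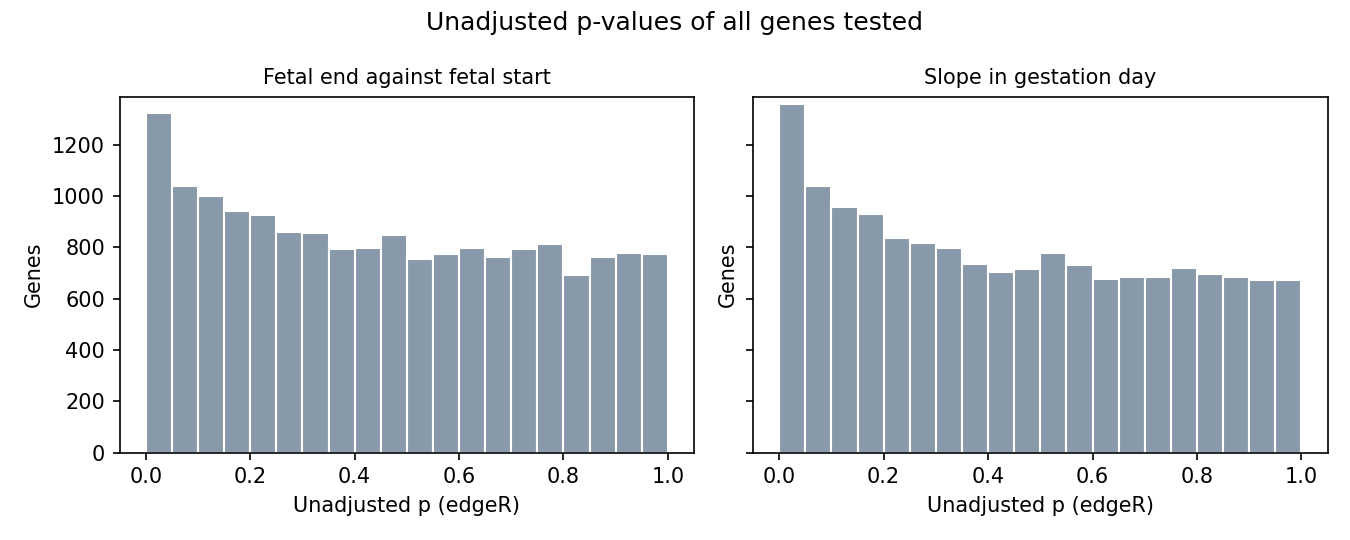
Number of genes by unadjusted edgeR p in bins of 0.05, for fetal end against fetal start (left, 17069 genes) and for the slope in gestation day (right, 15879 genes). The first bin holds 1321 and 1359 genes, and the second 1040 and 1038.

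The gene with the smallest p for a slope was ENSOARG00000021041, whose values are given above, at 0.30 ± 0.03 log2 units per day (SE, edgeR adjusted p = 0.1). ENSOARG00000001680 had the second smallest p, with -0.46 ± 0.05 log2 units per day (SE, edgeR adjusted p = 0.14). With the spread from all 14 libraries these slopes passed (edgeR adjusted p = 0.0118 and 0.00836, within a range over all alternatives of 4.7e-21 to 0.443 and 1.25e-15 to 0.443). ENSOARG00000006431 had 0.48 ± 0.06 log2 units per day (SE, edgeR adjusted p = 0.14, and 0.0118 with the spread from all 14 libraries).

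ENSOARG00000001032 had 30.9, 36.2 and 59.1 CPM at gd127, gd128 and gd131 and 98.2, 82.5 and 97.8 CPM at gd134, gd135 and gd136. Each lamb up to gd134 was above the one before, and the 3 fetal end lambs were level. The slope was 0.19 ± 0.02 log2 units per day (SE, edgeR adjusted p = 0.14). ENSOARG00000010287 had 30.2, 36.7 and 17.2 CPM at gd127, gd128 and gd131 and 9.02, 9.47 and 8.14 CPM at gd134, gd135 and gd136. It stood lowest in the oldest lamb, and the gd131 value again lay between the younger and the older lambs. The slope was -0.25 ± 0.03 log2 units per day (SE, edgeR adjusted p = 0.14).

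A fit within the groups leaves out the difference between them, and with it the identifier ending of 19 against 17 or 18. The ending still differs inside fetal start, where it is 17 for the gd127 lamb and 18 for the others. This edgeR fit, with a mean for each group and a common slope, called 0 genes, with 1215 at an unadjusted p under 0.05. The common slope was 0.27 ± 0.07 log2 units per day for ENSOARG00000021041 and -0.48 ± 0.13 for ENSOARG00000001680 (SE, edgeR adjusted p = 0.443 for both). Taken in each group of 3 lambs alone, without a test, the slope of log2 CPM was 0.24 at fetal start and 0.38 at fetal end for ENSOARG00000021041, and -0.48 and -0.40 for ENSOARG00000001680. The common slope was 0.19 ± 0.05 log2 units per day for ENSOARG00000001032 and -0.21 ± 0.08 for ENSOARG00000010287 (SE, edgeR adjusted p = 0.477 and 0.59). For these genes it came mostly from the fetal start lambs, with slopes of 0.23 and -0.24 there against -0.003 and -0.07 at fetal end. The slope of ENSOARG00000006431 within groups was 0.25 ± 0.12 (SE), against 0.48 over all 6 lambs. For ENSOARG00000002223 and ENSOARG00000021259 it was -0.05 ± 0.05 and 0.01 ± 0.06 log2 units per day (SE), against 0.11 ± 0.03 and -0.20 ± 0.04 over all 6 lambs. The test of day favours genes with a trend inside the groups and the test of groups favours genes that are level inside them, so this contrast follows in part from how the genes were chosen.

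The same 7 genes were read in the other lungs of the series, as values without a test. ENSOARG00000006431 had 1.68 to 2.53 CPM after IMV, 1.89 to 4.22 CPM after NRS, and 3.40 and 3.91 CPM at term. All of these lay above the 3 fetal start lambs. ENSOARG00000021041 had 10.7 to 16.2 CPM after IMV, 9.87 to 17.9 CPM after NRS, and 17.4 and 21.9 CPM at term. None of these lambs reached the lowest fetal end value of 22.1 CPM. ENSOARG00000002223 had 387 to 502 CPM after IMV, 326 to 444 CPM after NRS, and 435 and 535 CPM at term, all above the 3 fetal start lambs.

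ENSOARG00000001680 had 4.0 to 6.47 CPM after IMV and 1.30 to 2.57 CPM after NRS, and its term values of 0.666 and 0.761 CPM lay within the fetal end range. The IMV lambs, labelled gd134, thus stood above the fetal lamb of that day (1.49 CPM) and above the gd131 fetal lamb (2.89 CPM). ENSOARG00000010287 had 13.2 to 28.4 CPM after IMV and 11.7 to 17.7 CPM after NRS, all above the 3 fetal end lambs, and 5.95 and 13.98 CPM at term, on either side of them. ENSOARG00000021259 had 43.8 to 76.7 CPM after IMV, 95.04 to 133 CPM after NRS, and 65.5 and 117 CPM at term. The NRS and term lambs were all above the fetal end range of 41.0 to 53.2 CPM. ENSOARG00000001032 had 32.1 to 82.3 CPM after IMV, 50.9 to 95.2 CPM after NRS, and 69.5 and 116 CPM at term, with the NRS range overlapping both fetal groups. The highest IMV value lay just under the lowest fetal end value of 82.5 CPM, and both term values lay above fetal start. These genes were chosen for their difference or slope among the fetal lambs, so how far the other lambs lie from the fetal values depends in part on that choice.

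**Figure D5:**
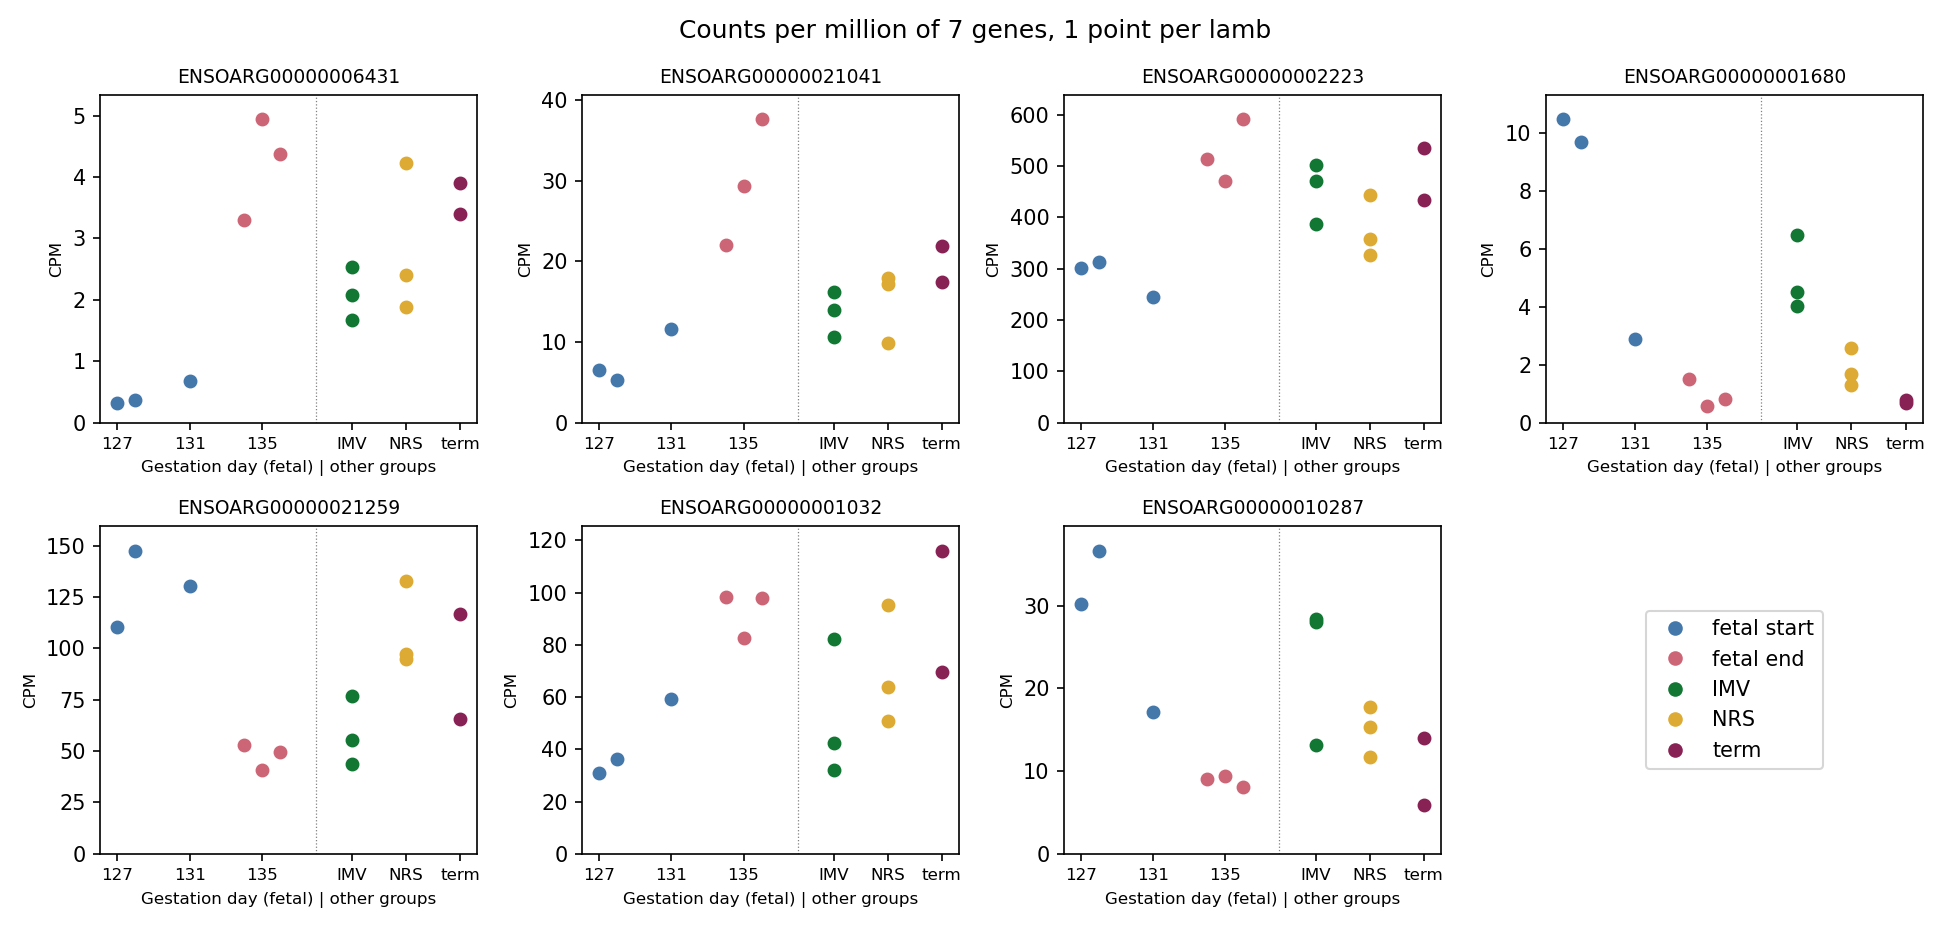
CPM of 7 genes in every lamb, with the 6 fetal lambs placed by labelled gestation day and the IMV, NRS and term lambs to the right of the dotted line. ENSOARG00000006431, ENSOARG00000021041, ENSOARG00000002223 and ENSOARG00000001032 are higher in all 3 fetal end lambs than in any fetal start lamb, and the other 3 genes are lower. All 7 genes were picked for a difference or slope among these fetal lambs.

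A few genes were present in some fetal lambs and nearly absent in others. They were defined by a gap of over 3 between neighbouring sorted values of log2(CPM + 0.1) and a highest level over 3 CPM, and 49 of 17069 genes (0.287%) met this. In 0 of them did the gap separate the 3 fetal start lambs from the 3 fetal end lambs, in either direction. That 0 says little about the groups, because few of the genes could have split 3 lambs from 3. In 36 of the 49 a single lamb stood apart. Fetal end replicate 1 was the only lamb with the gene present in 14 of these, fetal end replicate 2 in 8, fetal start replicate 2 in 3, fetal start replicate 3 in 2, and fetal start replicate 1 and fetal end replicate 3 in 1 each. Fetal start replicate 2 was the only lamb lacking the gene in 4 cases and fetal end replicate 2 in 3.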

How the data were processed

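Total RNA libraries from the right lower lung lobe were made with a stranded kit, per the labels' protocols. The authors deposited raw counts per Ensembl gene, whole numbers in all 14 sample columns. Subread with featureCounts 1.6.3, STAR 2.7.0f, cutadapt 1.16, bcl2fastq, DESeq2 1.22.2 and, as genome build, Oar_v3.1 are listed, without their roles, in the submitters' processing notes. Neither the annotation nor the strand setting is given in the sources used here, which leaves counts uncertain for genes that overlap, lie antisense or have near-identical copies.

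Tests used edgeR 4.0.16 under R 4.3.3, with TMM scaling, the filterByExpr filter (count minimum 10), the quasi-likelihood F test and Benjamini-Hochberg adjustment at a threshold of 0.05. The groups were compared in 1 fit of all 14 libraries with 5 group means (9 residual degrees of freedom). The slope in day used the 6 fetal libraries (4 residual degrees of freedom). CPM values use TMM-scaled library sizes, and components use log2 CPM with a prior count of 2. The SE is the estimate over the square root of F. Both procedures were tested on simulated data. Changes were simulated only in genes above a minimum mean count, so changes in genes with few counts were not covered. No fetal library was a repeat of another in its group, with chi-square values per degree of freedom of 22.3 to 69.5.

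Named genes were at most 2 per direction and test: genes past the threshold whose log2 CPM averaged 1 or more over the fetal libraries and, for groups, did not overlap, taken by size, then filled by smallest p. ENSOARG00000006431, the only gene called, had a mean of 0.55 log2 CPM, fell outside this rule and was named after its values were seen. The planned marker lists are lists of symbols and could not be applied. The libraries, genes and tests were chosen with earlier results of these data known. The alternatives tried were RLE scaling, DESeq2 1.42.0, no low count filter, other sets of libraries, the replicate number as a block, day from the animal identifier, slopes within groups and each fetal library left out in turn. The counts of 2-fold genes under these, and the slopes in each group alone, were chosen after seeing the data.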

Additional observations from a re-analysis of the deposited data

How the results depend on the processing

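The comparison of fetal end with fetal start called 1 gene, and this count was the same with RLE scaling and with no filter. It was 118 with DESeq2, 0 with only the 6 fetal libraries, and 0 to 5 with each fetal library left out in turn. The 5 genes without fetal start replicate 3 include ENSOARG00000006431, and the 3 genes without fetal start replicate 1 do not. The slope in day called 0 genes in edgeR, also with RLE scaling, no filter, day from the animal identifier, slopes within groups and any 1 fetal library left out. It called 240 genes with DESeq2 and 3 with the spread from all 14 libraries. The cause of these differences was not tested. The correlation of the first component with day was 0.86 over the 1000 most variable genes, with an unadjusted exact permutation p of 0.0361 (0.0361 to 0.325 over all alternatives) and 0.103 after Benjamini-Hochberg adjustment over the 3 tests of that component. The direction of the 9 single-gene estimates was the same in all 107 values under alternatives, with 12 that passed where the main value did not and 7 that no longer passed. The genes were chosen for these estimates in the same lambs, so the constant direction is no support for them. The slopes of ENSOARG00000002223 and ENSOARG00000021259 are not among the 107. Within groups they had the opposite sign to the slope over all 6 lambs.

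The replicate numbers of the groups are shared, but nothing in the labels ties lambs of the same number together. Deviations of same-numbered lambs from their group means correlated at -0.07, -0.12 and -0.13 across genes for replicates 1, 2 and 3. For lambs of different numbers the correlations ran from -0.08 to 0.20. Deviations from a mean of 3 lambs constrain one another, so these values cannot decide whether the numbers pair the lambs. With the replicate number as a block, 0 genes were called between the groups and 0 for the slope in day (812 and 933 at an unadjusted edgeR p under 0.05). With no filter on low counts, 2723 genes were 2-fold or more higher and 1420 lower at fetal end.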
